A study of Mus musculus with 3 samples.

Results

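The mature miRNAs mmu-miR-140-5p and mmu-miR-140-3p are cut from the opposite arms of the hairpin encoded by Mir140. They were 2 of the 627 mature miRNAs, listed in 961 deposited rows, that were counted in cultured mouse ovaries. Both were chosen by their counts in the 3 libraries described here, because the 5p arm was lower and the 3p arm was higher at the highest dose. The opposite movement of the miR-140 arms is therefore what they were selected on, and their values are given as a description with no test. The ovaries came from newborn female CD1 mice and were cultured for 72 h with DEHP, a phthalate plasticizer, at 0, 10 or 100 μM. The 0 μM group received the vehicle, DMSO. Each dose was represented by 1 small RNA library made from pooled ovaries, so there was no replicate and the variation between cultures is unknown. The question put to these libraries was whether the miRNAs of the early postnatal ovary, in which the primordial follicles form, differ with the dose of DEHP.

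A miRNA hairpin is cleaved by Drosha and Dicer into a duplex of a 5p and a 3p strand, of which usually only the strand loaded into an Argonaute protein persists, so that the arms of a shared precursor can accumulate to very different levels. The loaded strand pairs with target mRNAs mainly through its seed, bases 2 to 8, and the miR-140 arms therefore have separate target sets. miR-140 is best known from cartilage, where its hairpin is expressed together with its host gene Wwp2, a ubiquitin ligase gene, under the transcription factor SOX9.

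The Mir140 hairpin lay at chr8:107551244-107551313 on the plus strand of GRCm38.p6, the release of the mouse genome that the mm10 build named in the submitters' processing notes corresponds to. It spanned 70 bases inside Wwp2, a protein-coding gene at chr8:107436365-107558595 on the same strand. In the annotated transcript Wwp2-201, which has 24 exons, the miR-140 hairpin fell in intron 16, at chr8:107550136-107552276. It was intronic as well in Wwp2-204 (intron 15) and Wwp2-205 (intron 7), whereas the retained-intron transcript Wwp2-206 had an exon over it. The mature 3p arm occupied chr8:107551288-107551308. Its sequence, taken from RefSeq for GRCm38.p6, is shown with the seed in capitals so that it can be compared with other miRNAs.
mmu-miR-140-3p: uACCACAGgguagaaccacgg

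The labelled tissue was checked with miR-202, a miRNA of gonadal somatic cells. The counts of miR-202-5p were 41367 at 0 μM, 53172 at 10 μM and 9799 at 100 μM, and those of miR-202-3p were 1614, 1261 and 1098. Both arms of the gonadal marker were thus present in each library in which miR-140 was counted. The leading muscle marker, miR-1a-3p, had 354, 252 and 252 counts in the same libraries, and the liver marker miR-122-5p had 22, 14 and 8.

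The total of the counts used here was 5253367 in the vehicle library, 5064602 with 10 μM and 5952274 with 100 μM DEHP, and a count of 3 was worth 2.18, 2.23 and 5.50 normalized counts. Both miR-140 arms lay above this floor in each library. Composition differed at the highest dose, since the 10 most abundant miRNAs held 45.4%, 45.6% and 70.5% of the counts and the median count per miRNA was 232, 227 and 97. Levels of the miR-140 arms were therefore divided by median-of-ratios size factors (1.38, 1.35 and 0.546), and each statement about a level depends on that scaling. Reads carried no molecular identifiers, so the 95% intervals given with the miR-140 values cover counting error only.

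mmu-miR-140-5p, which in cartilage is the better studied arm, was read 1495 times in the vehicle library, 1300 times with 10 μM and 76 times with 100 μM DEHP. Its normalized count was 1085 without DEHP (exact Poisson interval 1030.5 to 1141) and 964 with 10 μM (913 to 1018), and with 100 μM it was 139 (109.7 to 174). The 5p arm was thus highest without DEHP, slightly lower at 10 μM and far lower at 100 μM, and none of these counting intervals overlapped. Relative to the vehicle library, its level was 88.9% at 10 μM and 12.8% at 100 μM. By abundance the 5p arm ranked 177, 178 and 338 among the 627 miRNAs with rising dose, so its place in the order of abundance moved by 1 at 10 μM and fell far at the highest dose. As a share of the counts kept for its library, without other scaling, the 5p arm made up 0.0285%, 0.0257% and 0.00128%, and of the total over all deposited rows 0.0216%, 0.0187% and 0.00111%.

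mmu-miR-140-3p, the more abundant strand, was read 20754 times in the vehicle library, 17096 times with 10 μM and 41816 times with 100 μM DEHP. Its normalized count was 15059.5 without DEHP (14855 to 15266), 12683 with 10 μM (12494 to 12875), and with 100 μM it was 76609 (75877 to 77347). The 3p arm had its lowest level at 10 μM and its highest at 100 μM, again with counting intervals that did not overlap. Its level was 84.2% of that of the vehicle library at 10 μM and 509% at 100 μM. It ranked 44, 47 and 20 among the 627 miRNAs and made up 0.395%, 0.338% and 0.703% of the kept counts, or 0.300%, 0.246% and 0.610% of all deposited rows. The 3p arm was therefore among the abundant miRNAs of the ovary in each library, and moved up in the order at 100 μM.

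**Figure D1:**
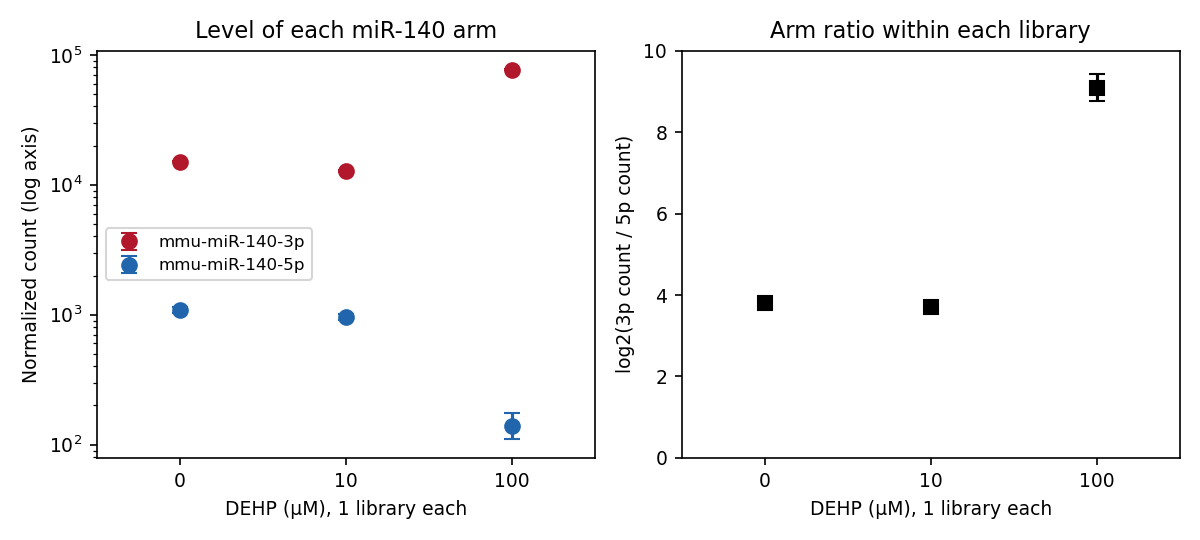
Left, normalized counts of both miR-140 arms in the libraries at 0, 10 and 100 μM DEHP on a log axis, with exact Poisson 95% intervals (1 library per dose); right, log2 of the 3p over the 5p count within each library with its 95% counting interval. At 100 μM the 3p arm stood at 76609 and the 5p arm at 139, and the log2 arm ratio at 9.09.

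Between 100 and 0 μM, the log2 ratio of the normalized count was -2.96 for miR-140-5p (exact Clopper-Pearson interval -3.31 to -2.63), which is 7.77-fold lower. For miR-140-3p it was 2.35 (2.32 to 2.37), which is 5.09-fold higher. Between 10 and 0 μM the ratios were -0.17 (-0.28 to -0.06) for the 5p arm and -0.25 (-0.28 to -0.22) for the 3p arm. Hence the miR-140 arms were both slightly lower at 10 μM and moved apart only at 100 μM. Between 100 and 10 μM, a comparison that uses the same 100 μM library again, the ratios were -2.79 (-3.15 to -2.46) and 2.59 (2.57 to 2.62). In whole ovaries, a different number of cells that express miR-140 and a different amount of an arm per cell cannot be told apart.

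Large ratios were common at the highest dose. A mean normalized count of 10 or more was reached by 587 miRNAs, and between 100 and 0 μM 26.7% of them lay above a log2 ratio of 1 and 25.7% below -1. Of the 2 miR-140 arms, 1 was above and 1 below, which is the pattern they were chosen by. Beyond a log2 ratio of 2, where both miR-140 arms still lay, the shares were 10.4% higher and 9.37% lower. The median over the 587 miRNAs was -0.01 (interquartile range -1.06 to 1.12). There were 39 miRNAs with a higher ratio than miR-140-3p and 24 with a lower ratio than miR-140-5p. The miRNAs nearest to the limit of 2 were miR-361-3p just above (2.02) and miR-3470a just below (1.97), and those nearest to -2 were miR-652-5p beyond it (-2.01) and miR-16-2-3p short of it (-1.98).

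Between 10 and 0 μM, 1.53% of the 587 miRNAs were above 1 and 5.11% were below -1, and 0 of the 2 miR-140 arms were among them. The median was 0.02 (interquartile range -0.37 to 0.29), so both miR-140 arms lay within the middle part of the distribution at the lower dose. Between 100 and 10 μM, 29.5% were above 1 and 24.7% were below -1, and 32 miRNAs exceeded miR-140-3p while 23 lay below miR-140-5p.

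The size of these level ratios depended on the scaling. When counts were scaled by library totals of the kept rows, the median miRNA shifted by -1.52 and the split of miRNAs beyond 1 went from 157 higher and 151 lower to 30 higher and 379 lower. The log2 ratio of miR-140-3p between 100 and 0 μM was then 0.83, no longer above 1, and that of miR-140-5p was -4.47. With totals over all deposited rows, an alternative chosen after seeing the data, they were 1.02 and -4.28, the median shift was -1.32 and the split was 42 higher and 349 lower, so whether the 3p arm passed 1 depended on the rows in the total. When the library sizes left out the 10 most abundant miRNAs, the median shifted by -0.58, the split was 91 higher and 219 lower, and the miR-140 arms had ratios of 1.77 and -3.54. The 3p arm stayed higher and the 5p arm lower at 100 μM under each scaling used.

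The ratio of the miR-140 arms within a library needs no scaling. Of the miR-140 counts in the vehicle library, 93.3% came from the 3p arm (Clopper-Pearson interval 92.9% to 93.6%). The share was 92.9% with 10 μM (92.6% to 93.3%), and with 100 μM DEHP it was 99.8% (99.773% to 99.857%). The 5p arm accordingly held 6.72%, 7.07% and 0.181%. There were 13.9 reads of the 3p arm for each read of the 5p arm at 0 μM, 13.2 at 10 μM and 550.2 at 100 μM. On the log2 scale these arm ratios were 3.79 (3.72 to 3.87), 3.72 (3.64 to 3.80) and 9.09 (8.77 to 9.42). The 0 and 10 μM libraries had overlapping intervals of the miR-140 arm ratio, and the 100 μM library stood apart from both. The dominant arm was 3p throughout, so miR-140 did not switch arms.

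The log2 arm ratio of miR-140 was higher by 5.30 at 100 μM than at 0 μM (Woolf interval 4.97 to 5.63), which is 39.4-fold. Between 0 and 10 μM it changed by -0.08 (-0.19 to 0.03), a difference not detectable at this depth. From 10 to 100 μM the change was 5.38 (5.04 to 5.71). Counted together, the normalized reads of both miR-140 arms were 16144, 13647 and 76749, with a log2 ratio of 2.25 between 100 and 0 μM and -0.24 between 10 and 0 μM. Because the 3p arm supplied nearly all reads, the level of the pair followed that arm, and the decrease of the 5p arm is not visible in the sum.

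For comparison, arms were paired by name in 186 hairpins, and the 92 in which each arm reached a mean of 100 normalized counts were kept, miR-140 among them. The hairpin just inside this limit was miR-1839, whose lower arm had a mean of 100.3, and let-7b was just outside at 93.7. Toward 3p, the arm ratio changed by more than 1 in 43.5% of the hairpins between 0 and 100 μM, in 9.78% between 0 and 10 μM and in 43.5% between 10 and 100 μM. The change of miR-140 ranked 3 of 92 between 0 and 100 μM, 53 between 0 and 10 μM and 3 between 10 and 100 μM. Among the 92 hairpins, 40 changed by more than 1 toward 3p at 100 μM and 26 toward 5p, with miR-126a (1.0003) just past the limit of 1 and miR-329 (0.91) just short of it. Of the 24 hairpins with both arms at 1000 or more, 15 changed toward 3p and 3 toward 5p, so the split between the directions depended on the minimum. Arm ratios moved both ways, and the change of miR-140 lay near the 3p end of a wide distribution with a median of 0.52, an interquartile range of -1.14 to 1.72 and an SD across hairpins of 2.46. At 10 μM that distribution was narrower, with a median of 0.04 and an SD of 0.74, and miR-140 lay in its middle.

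**Figure D2:**
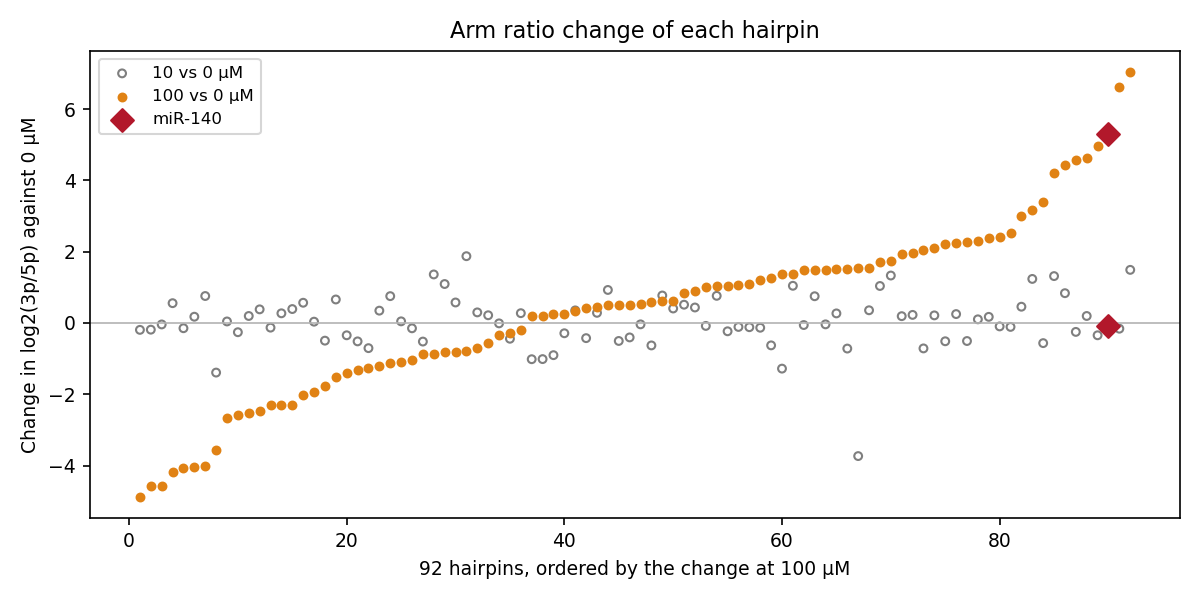
Change of log2(3p/5p) against the 0 μM library for the 92 hairpins, ordered by the change at 100 μM (filled points), with the change at 10 μM as open points and miR-140 as red diamonds. miR-140 changed by 5.30 at 100 μM and by -0.08 at 10 μM, while the hairpins ranged from -4.87 to 7.04 at 100 μM.

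At 0 μM, 10 of the 92 hairpins had a stronger bias to the 3p arm than miR-140, and at 100 μM the number was 3. The 3p arm was the major one in 47 hairpins at 0 μM and in 46 at 100 μM, so the shift of miR-140 was not accompanied by a net increase in 3p-dominated hairpins.

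A pattern like that of miR-140, with the 5p arm below -1 and the 3p arm above 1 between 100 and 0 μM, was seen in 8.70% of the hairpins, that is in 8 of 92 with miR-140 included. The others were miR-30e, miR-708, miR-143, miR-151, miR-106b, miR-34b and miR-674. The reverse, a higher 5p and a lower 3p arm, occurred in 10 hairpins. Only miR-30e, miR-708 and miR-140 had both arms beyond 2 in the direction of miR-140. At 10 μM 0 hairpins had arms that moved oppositely by more than 1 in either direction. Other totals were tried after seeing the data. With totals of the kept rows 7 hairpins passed and miR-140 was not among them, because its 3p ratio was below 1. These were miR-30e, miR-708, miR-151, miR-106b, miR-28a, miR-30a and miR-431, so miR-143, miR-34b and miR-674 also dropped out. With totals over all deposited rows 10 passed, namely the same 7, miR-140, miR-195a and miR-378a. The reverse pattern was then seen in 5 hairpins (kept rows) and 7 (all deposited rows), so the balance of the directions depended on the scaling.

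**Figure D3:**
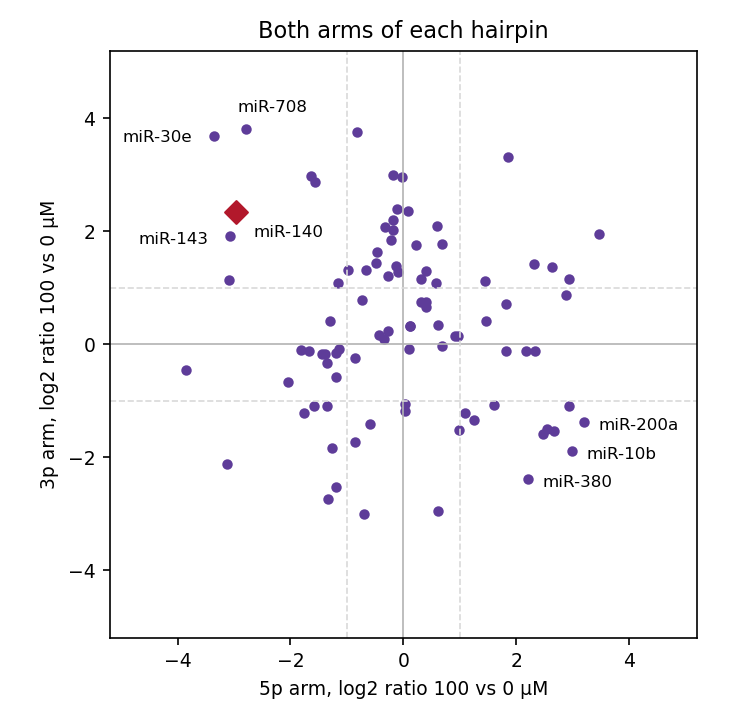
Log2 ratio of the normalized count between 100 and 0 μM for the 5p arm (horizontal axis) and the 3p arm (vertical axis) of each of the 92 hairpins, with dashed lines at 1 and -1. miR-140 (red diamond, -2.96 and 2.35) sits at the upper left near miR-30e, miR-708 and miR-143, while miR-10b, miR-380 and miR-200a sit at the lower right.

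The hairpins directly above miR-140 in the order of arm ratio change were miR-30e and miR-708. For miR-30e, a member of the miR-30 family and hosted in an intron of Nfyc, the 5p counts were 37713, 16972 and 1468 and the 3p counts 3570, 4512 and 18304 at 0, 10 and 100 μM. Its arm ratio change was 7.04 (6.95 to 7.13), and in contrast to miR-140 its major arm went from 5p to 3p. At 10 μM miR-30e had already changed by 1.49 (1.42 to 1.56), where miR-140 had not. For miR-708, in an intron of Tenm4, the 5p counts were 2907, 2407 and 166 and the 3p counts 3962, 2935 and 22151, a change of 6.61 (6.38 to 6.84). Like miR-140, miR-708 had lower counts of both arms at 10 μM than at 0 μM and diverging arms at 100 μM.

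Directly below miR-140 stood miR-143, a miRNA of smooth muscle and fibroblasts, with 596, 574 and 28 reads of the 5p arm and 288159, 218413 and 432017 reads of the 3p arm. Its change of 4.97 (4.43 to 5.51) had a counting interval that overlapped that of miR-140, so their order cannot be told from these counts. Next came miR-151, in an intron of Ptk2, with 748, 785 and 95 reads of the 5p arm and 5184, 6231 and 16249 reads of the 3p arm, a change of 4.62 (4.31 to 4.93). In miR-143 and miR-151, as in miR-140, the 3p arm was dominant at each dose.

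The mature arms of the hairpins above miR-140 are shown from RefSeq for GRCm38.p6, with seeds in capitals, so that the lower and the higher strands can be compared with miR-140-3p.
mmu-miR-30e-5p: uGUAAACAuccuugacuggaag
mmu-miR-30e-3p: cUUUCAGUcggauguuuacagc
mmu-miR-708-5p: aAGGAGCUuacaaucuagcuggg
mmu-miR-708-3p: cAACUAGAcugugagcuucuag
The 3p strands of miR-30e and miR-708 each begin with C and have 45.5% GC, whereas miR-140-3p begins with U and has 57.1% GC. None of these strands carries the miR-140-3p seed ACCACAG.

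At the opposite end from miR-140 were miR-10b (-4.87), miR-380 (-4.59), miR-200a (-4.58), miR-532 (-4.19) and miR-10a (-4.06), in which the 5p arm was higher and the 3p arm lower at 100 μM. For miR-10b, which lies in the Hoxd cluster, the 5p counts were 398751, 462690 and 1250029 and the 3p counts 1143, 1160 and 122. This is the mirror image of the miR-140 values, with the dominant arm higher and the minor arm lower. miR-10a, from the Hoxb cluster, shares the 5p seed of miR-10b, shown here because the same arm was the higher one in both.
mmu-miR-10b-5p: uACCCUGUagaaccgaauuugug
mmu-miR-10a-5p: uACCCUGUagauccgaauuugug

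The hairpins closest to miR-140 in the levels of both arms at 0 μM did not share the size of its change. For miR-214, the nearest, the 5p counts were 2207, 1660 and 382 and the 3p counts 11117, 11079 and 2964, so both arms were lower at 100 μM and the arm ratio changed by 0.62 (0.45 to 0.79). For miR-871, the 5p counts were 1142, 1027 and 397 and the 3p counts 8642, 8754 and 15774, a change of 2.39 (2.22 to 2.56). For miR-136, the 5p counts were 2153, 589 and 206 and the 3p counts 7604, 4289 and 1903, a change of 1.38 (1.17 to 1.60). The change of miR-140 was larger than that of these hairpins, but miR-140 was chosen by how its arms moved and they were not. Their 3p counts at 0 μM were all below that of miR-140.

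Of 374 miRNAs whose mean was at least 100 normalized counts, the 5 with log2 ratios at both doses most like those of miR-140-5p, by Euclidean distance over the pair of ratios, were miR-708-5p (distance 0.18), miR-143-5p (0.18), miR-19b-3p (0.26), miR-376b-3p (0.27) and miR-17-3p (0.30). The counts of miR-19b-3p, a member of the miR-17~92 cluster, were 7016, 7210 and 333, and those of miR-17-3p, from the same cluster, were 629, 474 and 37. The 2 nearest were the 5p arms of miR-708 and miR-143, the hairpins next to miR-140 in the order of arm ratio change. Both orders use the same 5p counts, so they are not separate results. The 5p arm of miR-30e, ranked above miR-708, was not among the 5 nearest.

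For miR-140-3p the most similar were miR-378a-3p (distance 0.04), miR-3470b (0.16), miR-380-5p (0.19), miR-496a-3p (0.24) and miR-195a-3p (0.27). The counts of miR-378a-3p, a miRNA from an intron of Ppargc1b, were 18721, 15844 and 37999, close to those of miR-140-3p in each library as well as in its ratios. The nearest miRNAs to the 3p arm included the 5p arm of miR-380, a hairpin that moved the opposite way in its arm ratio, so a pattern like that of miR-140-3p was not tied to the 3p side of a hairpin.

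The seed of miR-140-3p, ACCACAG, was carried by 1 other mature miRNA of the RefSeq table, mmu-miR-497b, at chr11:70234763-70234786 on the minus strand.
mmu-miR-497b: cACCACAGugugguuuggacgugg
miR-497b was read 16, 10 and 30 times, which is far below miR-140-3p in each library. Its log2 ratio between 100 and 0 μM was 2.20 (1.32 to 3.22), and between 10 and 0 μM it was -0.61 (-1.95 to 0.58). The higher value at 100 μM was in the same direction as that of miR-140-3p, while at 10 μM its counts were too few to tell a difference from 0.

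Mature sequences were matched for 529 of the 627 miRNAs. With 21 bases and 57.1% GC, miR-140-3p was shorter and richer in GC than the median miRNA tested (22 bases and 47.6%). Across the 75 hairpins with both arm sequences, Pearson's r of the arm ratio change at 100 μM was 0.15 with the difference in GC between the arms and 0.19 with the difference in length. Across the 497 tested miRNAs with a sequence, r of the log2 ratio was 0.15 with GC and -0.01 with length. Hairpins and miRNAs share the libraries and are not independent replicates, and these weak relations describe the background of the miR-140 change only.

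Other hairpins in introns of protein-coding genes were examined because the miR-140 hairpin lies in one. Their list was set from general knowledge of host genes and is not complete, since miR-378a, for example, is not in it. GENCODE M21 placed 34 of the 37 listed hairpins in an intron of a protein-coding gene on the same strand. Of 74 listed arms, 61 were measured, and between 100 and 0 μM 13 of them (21.3%) were above 1 and 18 (29.5%) below -1, beside 26.7% and 25.7% of all miRNAs. The median was -0.18 beside -0.01 over all miRNAs. Of the 55 measured arms whose hairpin was placed in an intron, 12 (21.8%) were above 1 and 15 (27.3%) below -1, with a median of -0.14. Between 10 and 0 μM, 0 of the 61 listed arms were above 1 and 4 (6.56%) below -1, beside 1.53% and 5.11%. Their median was 0.10 beside 0.02 over all miRNAs. Between 100 and 10 μM, 13 of the 61 listed arms (21.3%) were above 1 and 21 (34.4%) below -1, beside 29.5% and 24.7%. The median was then -0.34 beside -0.03 over all miRNAs. By level, the intronic arms were thus near the background of the miR-140 arms in the comparisons with 0 μM. Between 100 and 10 μM their share below -1 was above that background.

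By hairpin, 16 of the 37 in this list had both arms at the minimum, and their arm ratio changed by more than 1 toward 3p, the direction of miR-140, in 11 (68.8%, beside 43.5% of the 92 hairpins) and toward 5p in 2 (12.5%, beside 28.3%). The median change was 1.79 (range -2.58 to 7.04) beside 0.52 over the 92 hairpins. The arms moved oppositely in the miR-140 direction in 4 of them (25%, beside 8.70%), namely miR-30e, miR-708, miR-151 and miR-106b. In miR-28a, in an intron of Lpp, the 3p arm was higher at 100 μM (3.77) while the 5p arm was at -0.82. Its change of 4.58 (4.31 to 4.85) ranked 6 of 92, below those of miR-140, miR-143 and miR-151. The reverse movement was seen in 1, miR-425, with 1.26 for the 5p and -1.33 for the 3p arm, but GENCODE M21 places this hairpin in no intron of a protein-coding gene. Of the 15 placed in one, 11 (73.3%) changed toward 3p and 1 (6.67%) toward 5p, with a median of 2.05, and 0 moved in reverse. The 92 hairpins include the 16 listed, and also miR-140 and miR-378a, intronic but not listed, so the shares set side by side overlap. Among the 11 toward 3p, miR-126a (1.00025) and miR-455 (1.03) only just passed the limit. The 5p arms of miR-708 and miR-28a carry the same seed, so the listed hairpins are not all unrelated.

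Of 12 miRNAs linked to SOX9 or to cartilage, all measured, 0 were above 1 and 3 (25%) below -1 between 100 and 0 μM, beside 26.7% and 25.7% of all miRNAs. The median was -0.01 (0.0715 with TMM and 0.0077 with upper-quartile scaling) beside -0.01 over all miRNAs. Those below -1 were miR-455-5p (-1.35), miR-675-5p (-1.37) and miR-145a-5p (-1.20). For miR-455, which lies in an intron of the collagen gene Col27a1 and is, like miR-140, expressed in cartilage under SOX9, the counts were 4116, 2655 and 639 for the 5p and 1872, 2047 and 592 for the 3p arm. Its 3p arm was at -0.32 where miR-140-3p was at 2.35, and its arm ratio changed by 1.03. For miR-675-3p, from the H19 transcript, the counts of 30, 15 and 16 were low, and its ratio of 0.42 (-0.54 to 1.35) could not be told from 0. The remaining members lay between -0.32 and 0.96, with miR-199a-5p the highest, so none reached the ratio of miR-140-3p. Between 10 and 0 μM, 0 of the 12 were beyond 1 in either direction, with a median of -0.30 beside ratios of -0.17 and -0.25 for the miR-140 arms. Between 100 and 10 μM, 3 (25%) were above 1 and 1 (8.33%) below -1, beside 29.5% and 24.7% of all miRNAs, with a median of 0.10, so the direction of the list depended on the library compared.

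Markers of other cell types moved at the same dose as miR-140, and their part in the result was not tested. The cartilage markers, 5 of 5 measured, had summed normalized counts of 20511, 17147 and 79033, but the list holds both miR-140 arms and most of the sum was miR-140-3p itself. The 3 markers other than miR-140 summed to 4367, 3499 and 2285, and so were lower at 100 μM. The smooth muscle and fibroblast markers, 4 of 4 measured, summed to 334506, 320851 and 922699, with miR-143-3p the most abundant. The rise at 100 μM was that of miR-143-3p, since the other 3 summed to 125412, 158817 and 131219, miR-214-3p was at -0.57 between 100 and 0 μM and the median of the list was -0.22. As a share of the kept counts the list was 8.78%, 8.54% and 8.46%, and of all deposited rows 6.67%, 6.22% and 7.35%, so its direction at 100 μM depended on the total. Within that list miR-145a-5p, which is processed from the same primary transcript as miR-143, had counts of 7377, 11215 and 1271 and so was lower at 100 μM while miR-143-3p and miR-140-3p were higher. The endothelial markers, both arms of miR-126a, summed to 46170 normalized counts without DEHP, to 52252 with 10 μM and to 9855 with 100 μM, and were lower at 100 μM together with miR-140-5p.

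Among the other lists, the gonadal arms of miR-202 summed to 31188, 40382 and 19964 normalized counts, and between 100 and 0 μM the abundant 5p arm was at -0.74 and the 3p arm at 0.78. Of the kept counts these arms held 0.818%, 1.07% and 0.183%, and of all deposited rows 0.621%, 0.783% and 0.159%, so the log2 ratio of the sum between 100 and 0 μM went from -0.64 to -2.16 and -1.97 with these totals. The germ cell and pluripotent markers, 9 of 12 measured, summed to 3680, 3129 and 10553 with rising dose. By its mean over the libraries miR-292a-5p was the most abundant, but at 0 μM miR-293-3p (1095) stood above it (638). Of these markers 3 (33.3%) were above 1 and 1 (11.1%) below -1 between 100 and 0 μM, beside 26.7% and 25.7% of all miRNAs, with miR-292a-5p at 2.93, miR-294-3p at 2.70 and miR-293-5p at -1.44. As a share of the kept counts the list was 0.0965%, 0.0833% and 0.0968%, and of all deposited rows 0.0733%, 0.0607% and 0.0841%. The epithelial markers, 5 of 5, summed to 6759, 7090 and 6172. By its mean over the libraries miR-200b-3p was the most abundant, but at 0 μM miR-200a-3p (3580) stood above it (2569). Members of the epithelial list moved both ways between 100 and 0 μM, with miR-141-3p at -5.62 (157 and 1 reads), miR-200a-3p at -1.37 and miR-200c-3p at 1.13. The neuronal markers, 2 of 3 with miR-128-3p leading, summed to 1242, 1264 and 1323. The sums of the epithelial and neuronal lists differed little on this scale, although the epithelial members did not stay level. Between 100 and 0 μM, the log2 ratio of the epithelial sum went from -0.13 to -1.65 (totals of kept rows) and -1.45 (all deposited rows).

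The red blood cell markers, 3 of 4 measured, summed to 948, 1009 and 835, with miR-486a-5p the most abundant. Between 100 and 0 μM, the log2 ratio of this sum went from -0.18 to -1.70 (totals of kept rows) and -1.51 (all deposited rows). The leukocyte markers, 5 of 5 with miR-155-5p leading, summed to 379, 335 and 275. Between 100 and 0 μM 2 of them (40%, beside 25.7% of all miRNAs) were below -1, miR-142a-3p at -1.98 (62 and 6 reads) and miR-142a-5p at -1.65 (136 and 17 reads), while miR-155-5p was at -0.15. With the same totals, the log2 ratio of the leukocyte sum went from -0.46 to -1.98 and -1.79. The muscle markers, 3 of 5 with miR-1a-3p leading, summed to 284, 214 and 480. Between 100 and 0 μM miR-1a-3p was at 0.84 and miR-206-3p at -1.31 (26 and 4 reads, counting interval -3.34 to 0.16). The liver marker miR-122-5p stood at 15.96, 10.4 and 14.7. Each of these lists was small beside miR-140-3p in every library, and no marker that was measured had a count of 0.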

How the data were processed

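Small RNA libraries of cultured ovaries were analysed, 1 for each of 3 DEHP doses. Reads were trimmed, aligned to the mouse genome (bowtie2) and quantified (miRDeep2) by the authors, who deposited the raw read counts of each mature miRNA. The submitters' processing notes name mm10 and DESeq2, and the versions are not given in the sources used here. Of 961 rows, the row with the highest total was kept for each of 627 mature IDs (79 had several rows), and each miR-140 arm had a row of its own. The lowest count at 0 μM was 10.

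In R 4.3.3, DESeq2 1.42.0 gave the size factors and edgeR 4.0.16 the factors of the TMM and upper-quartile alternatives. The remaining steps ran in Python 3.11.15, pandas 2.3.3, scipy 1.17.1 and matplotlib 3.10.9. Log2 ratios of levels were taken with 0.5 normalized counts added, for a mean of at least 10. Arm ratios used deposited counts with 0.5 added, for hairpins with both arms at 100 or more, paired by names that differ only in 5p and 3p. A value beyond 1 was counted as higher or lower. Intervals at 95% were exact Poisson for counts, exact Clopper-Pearson for shares and level ratios, and Woolf's for arm ratios. The scripts were tested on simulated counts. With 1 library per dose no test was made and no p-value is given.

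The miRNAs named were both miR-140 arms, the 5 hairpins with the largest arm ratio change toward each arm, the neighbours of miR-140 in that order, the 3 hairpins nearest to it in level at 0 μM, the 5 miRNAs nearest to each arm in pattern, miRNAs with the same seed, members of the lists, the leading marker of each cell type and those next to a threshold. The members and lists were chosen with earlier results of these data known, and further names (other hairpins with opposite arms, hairpins that changed their major arm) were added after their values were seen. Alternatives were other scalings, other added values and minimums, summed rows and a limit of 2. Sequences and positions came from RefSeq for GRCm38.p6 and transcripts from GENCODE M21.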

Additional observations from a re-analysis of the deposited data

How the results depend on the processing

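With 1 library per dose, there was no replicate to leave out, and counting intervals say nothing of the spread between cultures. No paired analysis was possible because each concentration had 1 library. Pairing of arms by precursor was not run, because the rows used name no precursor. The arm ratio changes of miR-140 stayed within their counting intervals with nothing added to the counts. Summing rows could not alter them or the shares, since each arm has 1 row. All 48 level ratios of the miR-140 arms under another scaling, another added value or summed rows kept their sign. Depth limits miR-140-5p most at 100 μM, where it rests on 76 reads.

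Scaling by library totals of the kept rows gave log2 ratios for miR-140-5p of -4.47 (100 vs 0 μM) and -4.32 (100 vs 10 μM), and for miR-140-3p of 0.83 and 1.06. Totals over all deposited rows, chosen after seeing the data, gave -4.28 and -4.07 for the 5p arm and 1.02, 1.31 and, for 10 vs 0 μM, -0.29 for the 3p arm. With the 10 most abundant miRNAs left out of the library sizes the ratios were -3.54 and -3.40 for the 5p arm and 1.77, 1.98 and, for 10 vs 0 μM, -0.21 for the 3p arm. For miR-140-3p, TMM gave 2.43 (100 vs 0 μM), -0.22 (10 vs 0 μM) and 2.64 (100 vs 10 μM), and upper-quartile scaling gave -0.19 (10 vs 0 μM) and 2.55 (100 vs 10 μM). By construction these scalings shift each ratio of a comparison by nearly the same amount.

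The median ratio of the SOX9 and cartilage list at 100 against 0 μM changed sign with TMM (0.0715) and upper-quartile scaling (0.0077), and was -1.52 with totals of the kept rows, -1.33 with those of all deposited rows and -0.59 without the 10 most abundant. That of the intronic arms was -1.70 and -1.502 with these totals and -0.76 without the 10 most abundant.

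Alternatives for the marker sums at 100 against 0 μM were chosen after seeing the data. Totals of the kept rows turned the log2 ratio negative for the smooth muscle and fibroblast (1.46 to -0.0525), the muscle (0.76 to -0.758) and the neuronal markers (0.09 to -1.42). With totals over all deposited rows these were 0.141, -0.564 and -1.23. The cartilage sum went from 1.95 to -0.935 without the miR-140 arms, and that of smooth muscle and fibroblasts to 0.0653 without miR-143-3p.

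Hairpins beyond 1 in either direction, 66 of 92 between 0 and 100 μM, numbered 114 of 174 with both arms at 10 or more and 18 of 24 (15 toward 3p and 3 toward 5p) at 1000 or more, and 36 were beyond 2. Between 0 and 10 μM these numbers were 31, 4 and 1, and between 10 and 100 μM 121, 19 and 39. The change of miR-140 ranked 3 of the 174 hairpins at 100 μM as well, and its 5p arm was below the minimum of 1000. miRNAs beyond 1 numbered 198 between 0 and 100 μM at a mean of 100 or more, and 116 were beyond 2. Between 0 and 10 μM there were 23 with 10 added, 17 at a mean of 100 or more and 4 beyond 2, and between 10 and 100 μM 123 were beyond 2.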

Other observations

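While miR-140 kept its 3p arm as the major one, 15 of the 92 hairpins had another major arm at 100 μM than at 0 μM, and 5 of 92 had another one at 10 μM. At 100 μM 7 went from 5p to 3p and 8 from 3p to 5p. A change of major arm was counted without a margin, so some lay near an equal split. At 100 μM miR-483 had 81 reads of the 5p and 78 of the 3p arm, and miR-324 had 47 and 43. At 10 μM miR-485 was counted, although it had 324 and 327 reads at 0 μM. For miR-335, in an intron of the imprinted gene Mest, the 5p counts were 10840 at 0 μM and 2169 at 100 μM and the 3p counts 6612 and 6528. For miR-423 the 5p counts were 3710 and 2925 and the 3p counts 7642 and 1056. miR-221 had 264 and 615 reads of the 5p arm and 2574 and 361 of the 3p arm. These hairpins were picked after their values were seen.

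Arms shared between hairpins were counted once per name. The 3p arm of miR-199a and miR-199b is a single mature miRNA with 154340, 191783 and 67389 reads, and likewise the 3p arm of miR-465a, miR-465b and miR-465c, with 2521, 3340 and 917 reads, so the arm ratios of these hairpins are not separate measurements.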
